A study of Mus musculus with 14 samples.

Results

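The proteasome genes of mouse blood-forming cells were followed across 3 stages of myeloid development, with and without Rheb1. The genes were taken by name: every array row whose gene name starts with Psma, Psmb, Psmc, Psmd, Psme, Psmf or Psmg and a digit, which gave 49 of the 27376 gene names on the array. Of these, 16 encode the core particle, 17 the regulatory particle, 5 the immunoproteasome or its activator, 3 other activators or an inhibitor, and 7 assembly chaperones. The remaining gene, Psmc3ip, carries the prefix for a protein interaction and encodes a cofactor of homologous recombination, not a subunit. It is described apart below but stays in the counts of the 48 tested genes. The rule took genes by name and used no measured value of the comparisons below. It was chosen with earlier results of these data known. The probe of highest mean signal over the 14 arrays stood for a gene. Total RNA of 14 samples was hybridised to single-colour Agilent arrays. There were 3 samples per genotype for myeloid progenitors, titled GMP, and for myeloid cells, whereas each genotype had 1 sample of hematopoietic stem cells. Rheb1-/- denotes Vav1-cre; Rheb1 fl/fl mice, in which Cre is active throughout the blood system, so that every blood lineage of the mutant carries the deletion. The labels call the controls wild type without naming their alleles, and they give no age, treatment or sort markers. Rheb1 is a small GTPase known as the direct activator of the growth kinase mTORC1, and the series title places the comparison in macrophage differentiation.

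The proteasome degrades proteins tagged with ubiquitin. Its core particle is a barrel of alpha and beta rings whose proteolytic sites lie on the beta subunits Psmb5, Psmb6 and Psmb7. The regulatory particle caps the barrel, with ATPases (Psmc genes) that unfold the substrate and non-ATPases (Psmd genes) that bind and remove ubiquitin. In immune cells, and under interferon gamma, Psmb8, Psmb9 and Psmb10 take the places of Psmb5, Psmb6 and Psmb7, and Psme1 and Psme2 form an alternative cap. This immunoproteasome is known for making peptides for MHC class I.

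Psmb8 and Psmb5 are paralogues, so the bases shared by their most alike probes are shown. The 60-base probes below, given 5′ to 3′ from the array's annotation in mm9, share 31 of 50 overlapping bases (62.0%), and capitals mark the identical bases. The brighter Psmb8 probe, which gave the Psmb8 values reported here, shares 18 of 57 bases (31.6%) with the Psmb5 probe. The Psmb8 probe lies at chr17:34337771-34337830 on the plus strand and the Psmb5 probe at chr14:55233161-55233220 on the minus strand. No other pair among the 8 genes of the immunoproteasome and the sites it replaces shared a larger percentage of aligned bases.
Psmb8: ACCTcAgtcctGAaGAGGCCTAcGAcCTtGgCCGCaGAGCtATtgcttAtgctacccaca
Psmb5: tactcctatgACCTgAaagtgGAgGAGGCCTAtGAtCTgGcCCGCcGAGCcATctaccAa

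The next sequences are the 120 bases before the annotated starts of 4 catalytic subunits (RefSeq, GRCm38.p6). They are the immune and constitutive catalytic subunits with a match to a motif searched. Psmb10 had no match and is not shown, and for Psmb7 no promoter sequence was at hand. Capitals mark motif letters. A gamma-activated site (TTCNNNGAA) lies in Psmb8 (chr17:34198075-34198194), a CCAAT box in Psmb9 (chr17:34187331-34187450), and the core of the element bound by Nfe2l1 and Nfe2l2 (TGACNNNGC) in Psmb5 (chr14:54617996-54618115) and Psmb6 (chr11:70525237-70525356). Psmb8 and Psmb6 are on the plus strand and the others on the minus strand.
Psmb8: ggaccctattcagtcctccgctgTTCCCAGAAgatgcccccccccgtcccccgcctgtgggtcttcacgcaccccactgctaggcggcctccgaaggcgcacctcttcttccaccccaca
Psmb9: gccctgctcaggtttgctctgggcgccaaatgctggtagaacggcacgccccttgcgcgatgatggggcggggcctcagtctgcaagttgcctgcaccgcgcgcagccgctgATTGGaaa
Psmb5: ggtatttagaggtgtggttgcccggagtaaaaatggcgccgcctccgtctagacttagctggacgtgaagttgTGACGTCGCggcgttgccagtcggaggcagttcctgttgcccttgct
Psmb6: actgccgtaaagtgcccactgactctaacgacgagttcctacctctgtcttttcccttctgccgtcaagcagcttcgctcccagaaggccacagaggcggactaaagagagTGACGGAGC

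Motifs were searched on both strands in the 250 bases before each start, for the 40 of 48 proteasome genes with a promoter in the table. These 48 leave out Psmc3ip and include Psmb11, whose level was not tested. TGACNNNGC was in 5 of 40 (12.5%), against 11.5% of all 27025 promoters, and CCAAT in 14 of 40 (35%), against 37.5%. The core of the interferon-stimulated response element was in 0 of 5 immunoproteasome promoters, in 3.46% of all promoters and in 10 of 21 promoters of known interferon targets. TTCNNNGAA was in 1 of 5 immunoproteasome promoters and 8.13% of all. CCAAT stood in 12 of 13 promoters of MHC class I genes. No match says only that these letters are not in the window.

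Levels are log2 intensities minus the array's 75th percentile, and a difference is given on that log2 scale. Signal stood well above background at 58.5% to 67.6% of an array's spots, with 0 saturated. Across genes, arrays of one group correlated at 0.988 to 0.992. Of the 49 genes, 48 were well above background on all 14 arrays and were tested; the other, the thymus subunit Psmb11, was well above it on 2 arrays. Rheb, as the array names Rheb1, read 3.82 to 4.08 in wild-type and 2.65 to 3.31 in Rheb1-/- progenitors, 2.86 to 3.61 in wild-type and 2.16 to 2.43 in Rheb1-/- myeloid cells, and 3.51 against 2.31 in stem cells. Its groups did not overlap, and it passed the test in myeloid cells (-0.88, adjusted p = 0.0121) but not in progenitors (-1.08, adjusted p = 0.0945). The arrays lay on 4 slides. All wild-type myeloid arrays were on slide 1 and all Rheb1-/- myeloid arrays on slide 4, so in myeloid cells genotype and slide cannot be told apart. Slide 3 held 2 progenitor arrays of each genotype, and slide 4 also held Rheb1-/- progenitor 3. Slide 2 held wild-type progenitor 1 and the wild-type stem cell array, and was scanned on another day than the other slides. Which animals the samples came from is not labelled. The p-values therefore rest on the spread between these arrays, which may be technical.

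The cell type labels were set against marker genes. Of 16 monocyte and macrophage markers, 16 were higher in wild-type myeloid cells than in progenitors and 14 in Rheb1-/- cells, and 11 of 12 stem and progenitor markers were lower in both. Some markers of other lineages also rose in wild-type and in Rheb1-/- myeloid cells. These were 11 and 10 of 15 neutrophil and 11 and 6 of 13 T and NK cell markers. Also higher were 10 and 6 of 11 B cell, 12 and 10 of 15 dendritic cell, and 7 and 6 of 12 erythroid markers. Of the same lists 4 and 3 neutrophil, 3 and 3 dendritic cell and 2 and 5 erythroid markers fell. Falls of B cell markers numbered 0 and 1, and of T and NK cell markers 1 and 2. In both genotypes 10 of 11 eosinophil, basophil and mast cell markers fell and 1 rose. Of 10 megakaryocyte markers 6 fell and 2 rose in both. Over all genes 39.5% rose and 38.4% fell in wild-type cells, and 30.4% rose and 38.2% fell in Rheb1-/- cells. The summed erythroid level was 4.54 to 5.79 in wild-type progenitors and 10.6 to 11.1 in wild-type myeloid cells, that of B cells 4.99 to 5.13 and 6.04 to 6.75, and that of T and NK cells 7.30 to 7.39 and 4.52 to 4.87. The part of these markers in the stage comparisons below was not tested. The wild-type stem cell array stood apart: the median monocyte and macrophage marker was 4.38 higher on it than on the Rheb1-/- stem cell array, and 14 of 16 were past 2-fold. Of other markers measured on both, 9 of 10 for B cells, 9 of 14 for dendritic cells, 7 of 10 for erythroid cells and 6 of 15 for neutrophils were past 2-fold in the same direction.

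Most proteasome genes were lower in myeloid cells than in progenitors. In wild-type cells 39 of 48 genes fell and 0 rose, where 77.8% of all 17724 tested genes passed (38.4% fell and 39.5% rose). In Rheb1-/- cells 41 of 48 fell and 0 rose, where 68.6% of all genes passed (38.2% fell and 30.4% rose). Without Psmc3ip, 38 of 47 genes fell in wild-type and 40 of 47 in Rheb1-/- cells. Progenitor and myeloid arrays did not overlap for 40 of 48 genes in wild-type cells (39 lower, 1 higher; 80.0% of all genes, 39.1% lower and 40.9% higher) and for 43 of 48 in Rheb1-/- cells (42 lower, 1 higher; 73.2% of all genes, 40.5% lower and 32.7% higher). The median proteasome gene differed by -0.71 in wild-type and by -0.60 in Rheb1-/- cells, beside medians of 0.07 and -0.08 over all genes. Of 22 cell cycle genes 16 fell and 0 rose in wild-type cells (median -0.79), and 9 fell and 5 rose in Rheb1-/- cells (median -0.08); their part in the proteasome values was not tested. Quantile normalization moved the first of these all-gene medians to -0.05 and left 39 and 42 genes lower. On slide 4, which held arrays of both stages, 43 of 48 (89.6%) were lower on all 3 Rheb1-/- myeloid arrays than on the progenitor array, against 46.5% of all genes. Wild-type myeloid cells and progenitors shared no slide, so there stage and slide cannot be told apart. In bulk samples fewer cells of a type and less RNA per cell cannot be told apart either.

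**Figure D1:**
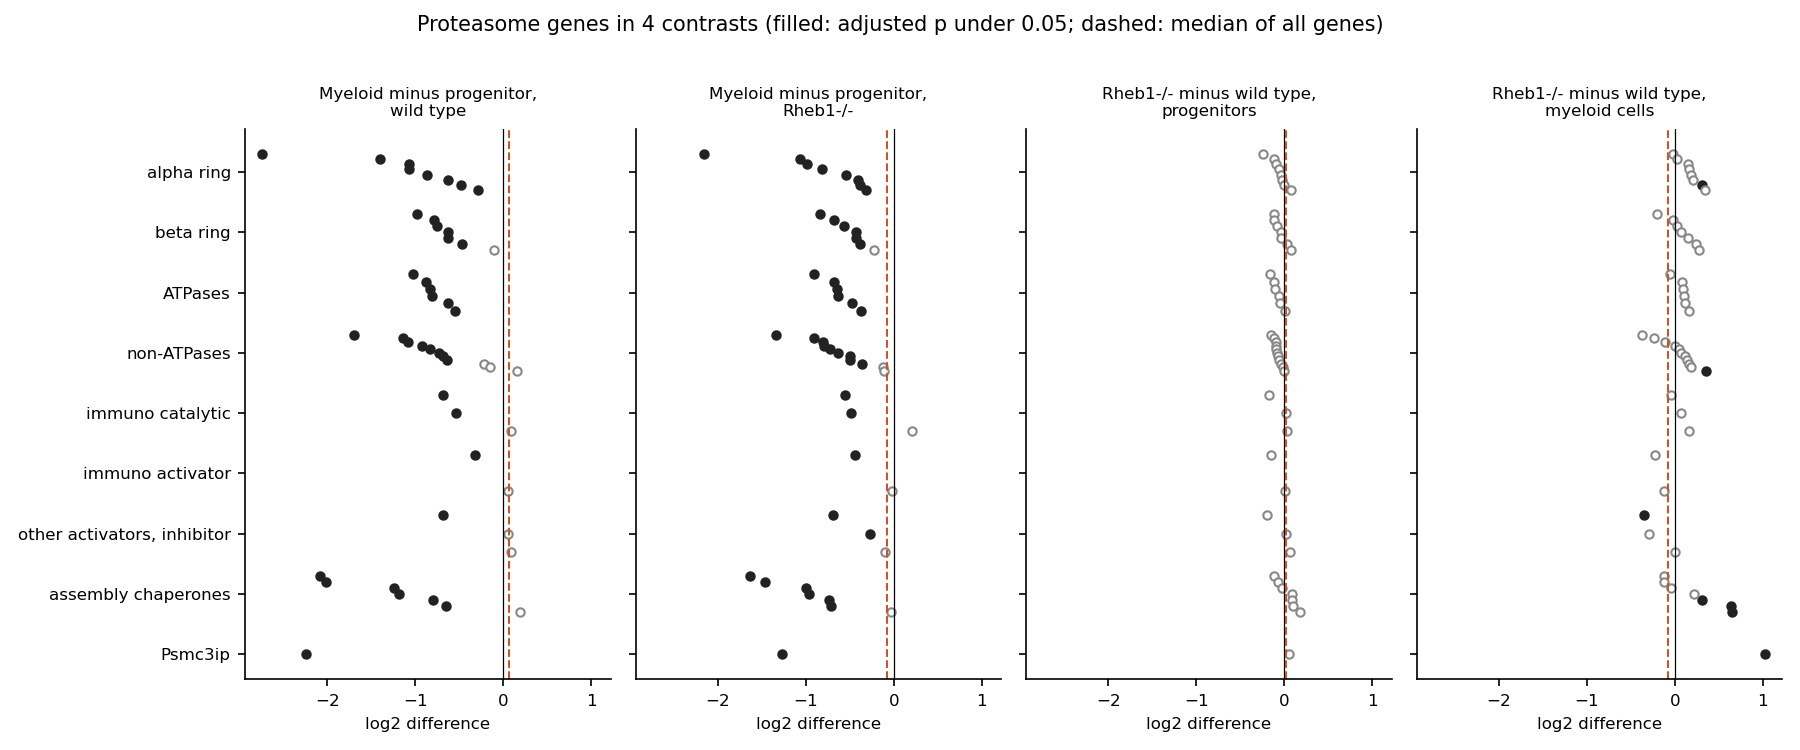
Log2 differences (x axis) of the 48 tested proteasome genes in 4 comparisons, 1 point per gene, arranged by class; filled points passed an adjusted p of 0.05 and the dashed line is the median of all genes. In the stage comparisons 6 of 48 genes in wild-type and 1 of 48 in Rheb1-/- cells lie above 0, against 51.9% and 46.8% of all genes. The genotype comparison in progenitors has no filled point.

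In the core particle 14 of 15 tested genes fell in each genotype. All 8 alpha subunits, which form the gate and the outer rings, fell in both genotypes, and of 7 tested beta subunits 6 did. The exception was Psmb3, with -0.11 in wild-type and -0.22 in Rheb1-/- cells. The alpha subunit Psma8, known from germ cells as a stand-in for Psma7, had the largest difference of any member, -2.74 (SE 0.20, adjusted p = 5.48e-07) in wild-type and -2.16 (SE 0.20, adjusted p = 4.86e-06) in Rheb1-/- cells. Its values were 0.35, 0.14 and 0.03 in wild-type progenitors and -2.57, -2.21 and -2.92 in wild-type myeloid cells. The other alpha subunits fell by 0.29 to 1.4 in wild-type cells, with Psma2 at the small end and Psma5 at the large end.

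Psma5 read 5.31, 5.46 and 5.46 in wild-type progenitors, 5.34, 5.41 and 5.41 in Rheb1-/- progenitors, 3.92, 4.06 and 4.03 in wild-type myeloid cells, and 4.17, 4.37 and 4.41 in Rheb1-/- myeloid cells. Every progenitor array was above every myeloid array, and the myeloid genotypes did not overlap. Psma7, its neighbour in the alpha ring, read 6.08, 6.33 and 6.36, then 6.21, 6.17 and 6.30, then 5.63, 5.71 and 5.54, and 5.81, 5.92 and 5.73 in the same order. A second Psma7 probe, for a different transcript, gave 0.80 where the main probe gave -0.63 for wild-type myeloid cells minus progenitors, so the probes disagreed.

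Among structural beta subunits, Psmb4 read 6.40, 6.41 and 6.57 in wild-type and 6.44, 6.51 and 6.51 in Rheb1-/- progenitors, then 5.83, 5.93 and 5.72 in wild-type and 5.94, 6.14 and 6.11 in Rheb1-/- myeloid cells. Psmb1 read 4.40, 4.57 and 4.58, then 4.60, 4.63 and 4.54, then 4.12, 3.88 and 3.66, and 4.11, 4.14 and 4.25 in that order. Both fell by 0.63 in wild-type cells, and by 0.43 (Psmb4) and 0.42 (Psmb1) in Rheb1-/- cells.

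All 6 ATPases of the regulatory particle fell in both genotypes, by 0.55 (Psmc2) to 1.03 (Psmc5) in wild-type cells and by 0.37 to 0.91 in Rheb1-/- cells, with the same genes at both ends. Psmc2 read 4.49, 4.39 and 4.28 in wild-type and 4.30, 4.39 and 4.29 in Rheb1-/- progenitors, and 3.99, 3.76 and 3.76 against 3.84, 4.05 and 3.97 in the myeloid cells. Psmc6 read 5.04, 5.11 and 5.13, then 5.09, 5.16 and 5.03 in the progenitors, and 4.52, 4.48 and 4.38, then 4.48, 4.63 and 4.76 in the myeloid cells. For both genes the stages stood apart and the genotypes overlapped within each stage.

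Of 11 non-ATPases, 8 fell in wild-type and 9 in Rheb1-/- cells. Those that did not pass in wild-type cells were the ubiquitin receptor Psmd4 (0.16), Psmd8 (-0.15) and Psmd13 (-0.22), and of these Psmd13 passed in Rheb1-/- cells (-0.36). Psmd7, the structural partner of the deubiquitinase Psmd14, had the largest fall of the regulatory particle, -1.70 (SE 0.09, adjusted p = 7.74e-08) in wild-type and -1.34 (SE 0.09, adjusted p = 6.66e-07) in Rheb1-/- cells. It read 3.73, 3.73 and 3.96 in wild-type and 3.84, 3.80 and 3.75 in Rheb1-/- progenitors. In the myeloid cells it read 2.17, 2.17 and 1.99 against 2.39, 2.53 and 2.47. Psmd4 read 2.74, 3.09 and 2.84, then 2.75, 2.85 and 2.80 in the progenitors, and 3.36, 2.86 and 2.91, then 2.68, 2.85 and 2.48 in the myeloid cells. Its stages overlapped, with wild-type myeloid array 1 the highest of all.

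Among subunits and chaperones, Psmg1 and Psmg2 had the largest falls after Psma8. These chaperones, which together build the alpha ring, fell by 2.09 (SE 0.11, adjusted p = 7.20e-08) and 2.02 (SE 0.11, adjusted p = 9.33e-08) in wild-type cells. In Rheb1-/- cells they fell by 1.63 (SE 0.11, adjusted p = 6.46e-07) and 1.47 (SE 0.11, adjusted p = 1.4e-06). Psmg3 and Psmg4, the other pair of alpha-ring chaperones, fell by 1.25 and 1.19 in wild-type cells. Psmd5 and Psmd9, which assist the base of the regulatory particle, fell by 0.65 and 0.80, while Psmd10 did not pass (0.19). The class median was -1.19 in wild-type and -0.96 in Rheb1-/- cells. Psmc3ip, the recombination cofactor, fell by 2.25 (SE 0.14, adjusted p = 1.59e-07) and 1.27 (SE 0.14, adjusted p = 1.48e-05).

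**Figure D2:**
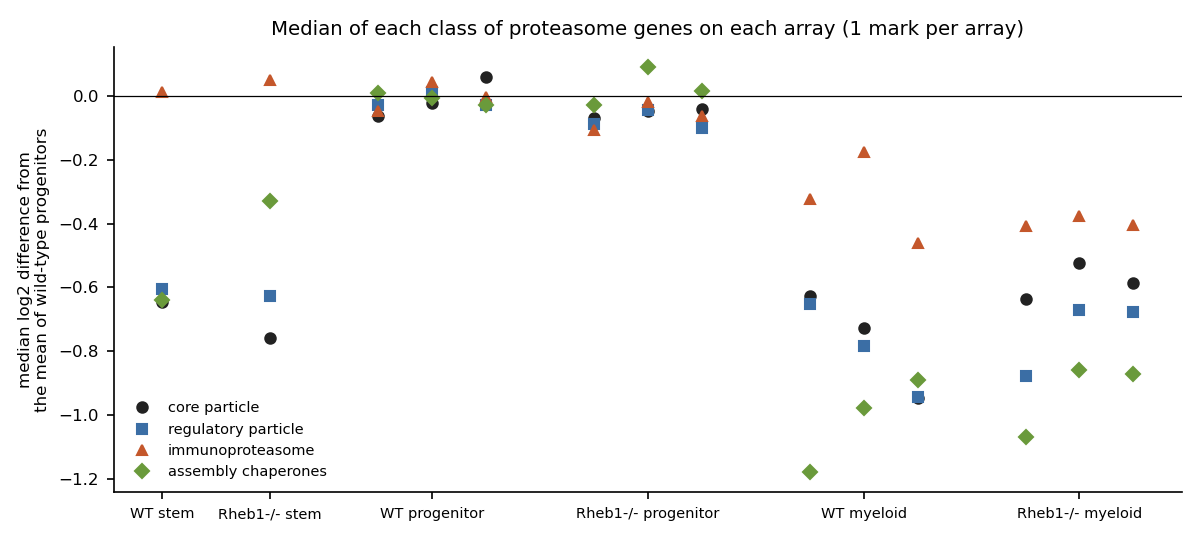
Median log2 difference from the mean of wild-type progenitors (y axis) of the genes of 4 classes on each of the 14 arrays, grouped by cell type and genotype. On every myeloid array the immunoproteasome median (-0.17 to -0.46) is above those of the core, the regulatory particle and the chaperones, and on the stem cell arrays it lies near 0.

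Of the 5 immunoproteasome genes, Psmb8, Psmb10 and Psme1 fell in both genotypes, while Psmb9 and Psme2 passed in neither. Over all genes 38.4% fell in wild-type and 38.2% in Rheb1-/- cells. The class median was -0.32 in wild-type and -0.45 in Rheb1-/- cells, beside core medians of -0.76 and -0.55. On slide 4 alone, 3 of 5 immunoproteasome genes and 15 of 15 core genes were lower on all 3 myeloid arrays than on the progenitor array.

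Psmb8 read 5.43, 5.53 and 5.46 in wild-type progenitors, 5.48, 5.46 and 5.55 in Rheb1-/- progenitors, 5.05, 5.04 and 4.72 in wild-type myeloid cells, and 5.07, 4.90 and 5.07 in Rheb1-/- myeloid cells. The stages did not overlap, and it fell by 0.54 (SE 0.10, adjusted p = 0.000672) and 0.48 (SE 0.10, adjusted p = 0.00160). The Psmb8 probe printed above, which is not the brighter of its probes, gave -0.97 and -0.59. Its counterpart Psmb5 read 4.57, 4.52 and 4.63, then 4.51, 4.55 and 4.55, then 3.91, 3.83 and 3.61, and 3.71, 4.05 and 3.80. It fell by 0.79 (SE 0.11) and 0.68 (SE 0.11).

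Psmb9 read 4.78, 4.87 and 4.82 in wild-type and 4.54, 4.65 and 4.76 in Rheb1-/- progenitors, then 5.02, 5.01 and 4.69 in wild-type and 4.89, 4.90 and 4.79 in Rheb1-/- myeloid cells. In wild-type cells its stages overlapped (0.08, adjusted p = 0.476), and in Rheb1-/- cells every myeloid array was above every progenitor array without passing the test (0.21, adjusted p = 0.0903). The wild-type sign turned with quantile normalization (-0.017). The subunit it replaces, Psmb6, read 4.86, 4.78 and 4.93, then 4.77, 4.79 and 4.89, then 4.26, 4.13 and 3.91, and 4.22, 4.35 and 4.18. It fell by 0.76 (SE 0.10) and 0.57 (SE 0.10), with no overlap between stages.

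Psmb10 read 6.22, 6.37 and 6.35, then 6.19, 6.39 and 6.46 in the progenitors, and 5.68, 5.72 and 5.49, then 5.79, 5.81 and 5.76 in the myeloid cells. It fell by 0.69 (SE 0.10) and 0.56 (SE 0.10). Psmb7, its constitutive counterpart, read 3.41, 3.61 and 3.41, then 3.29, 3.43 and 3.36 in the progenitors, and 3.32, 3.00 and 2.69, then 2.90, 2.93 and 3.1 in the myeloid cells. It fell by 0.47 (SE 0.14) and 0.38 (SE 0.14), and the second call was lost without any 1 of Rheb1-/- progenitor arrays 1, 2 or 3, Rheb1-/- myeloid arrays 1 or 2, or wild-type myeloid array 2. Psmb8 and Psmb10 thus passed as lower together with the subunits they replace, and Psmb9 did not.

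The activator subunit Psme1 read 5.80, 5.76 and 5.78, then 5.83, 5.88 and 5.65 in the progenitors, and 5.46, 5.61 and 5.32, then 5.30, 5.40 and 5.32 in the myeloid cells. It fell by 0.32 (SE 0.09, adjusted p = 0.00946) and 0.45 (SE 0.09, adjusted p = 0.00156). Its partner Psme2 read 6.04, 6.26 and 6.35, then 6.11, 6.04 and 6.06, then 6.06, 6.40 and 6.36, and 5.98, 6.12 and 6.04. Its groups overlapped throughout, with 95% intervals of -0.19 to 0.30 in wild-type and -0.27 to 0.22 in Rheb1-/- cells. Psme2 has a near-identical copy in RefSeq, Psme2b, so its values are uncertain.

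**Figure D3:**
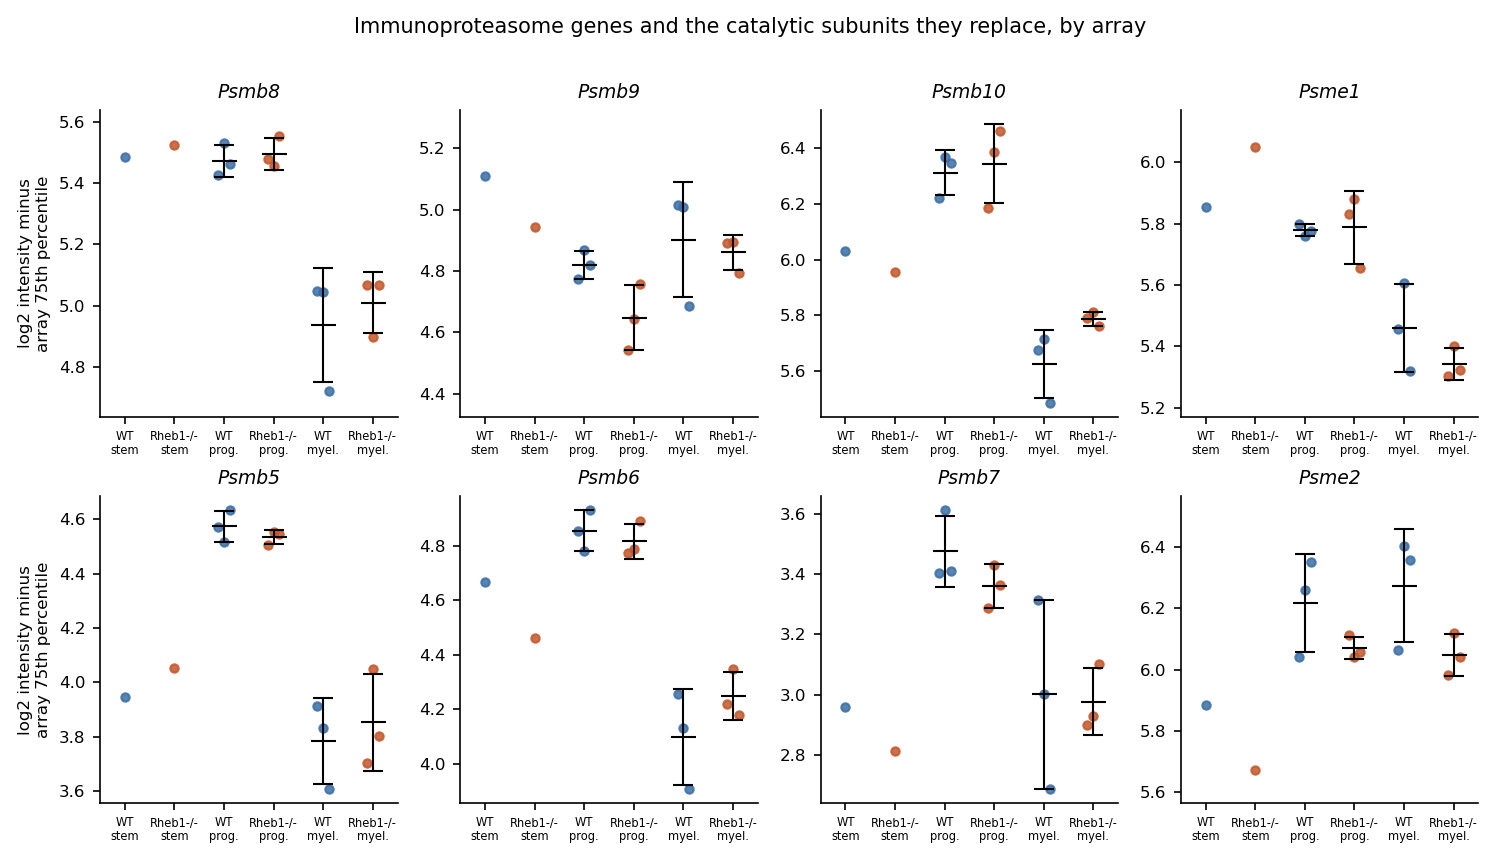
Log2 intensity minus the array's 75th percentile (y axis, one scale per panel) of the 5 immunoproteasome genes and of Psmb5, Psmb6 and Psmb7 in 6 groups, 1 point per array, with mean and SD where a group has 3 arrays. Psmb6 stands lower in myeloid cells than in progenitors, while Psmb9 does not.

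The immune subunit minus its constitutive counterpart was taken on each array, relative to wild-type progenitors. Psmb9 minus Psmb6 was 0.79, 0.91 and 0.81 in wild-type and 0.71, 0.58 and 0.65 in Rheb1-/- myeloid cells, against -0.20, -0.11 and -0.10 in Rheb1-/- progenitors. Every myeloid array was above every progenitor array. Psmb8 minus Psmb5 averaged 0.25 ± 0.05 (SD, n = 3) in wild-type and 0.26 ± 0.28 (SD, n = 3) in Rheb1-/- myeloid cells, where 1 of 3 arrays was below 0. Psmb10 minus Psmb7 averaged -0.21 ± 0.23 (SD, n = 3) and -0.02 ± 0.13 (SD, n = 3). The exact two-sided permutation test on Psmb9 minus Psmb6 between stages gave 0.10 in each genotype, the smallest p that 3 against 3 arrays allow, and 0.20 after adjustment over the 12 comparisons of this kind. Psmb8 minus Psmb5 between wild-type stages (0.25) and Psmb10 minus Psmb7 between Rheb1-/- stages (-0.17) gave the same p and adjusted p.

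**Figure D4:**
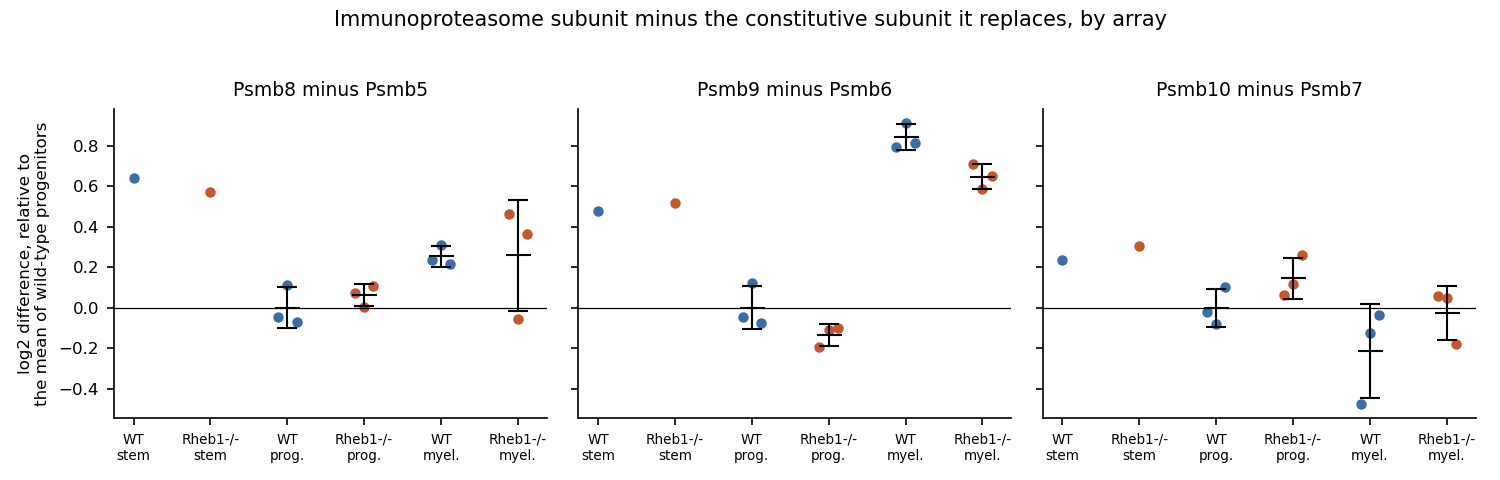
Log2 intensity of each immune catalytic subunit minus that of the constitutive subunit it replaces (y axis), relative to the mean of wild-type progenitors, 1 point per array with mean and SD of 3 arrays. Psmb9 minus Psmb6 is highest in myeloid cells, and both stem cell arrays lie above 0 in all 3 panels.

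In stem cells, with 1 array of each genotype and no test, the median core and regulatory gene was below wild-type progenitors, while the immunoproteasome genes went either way. Relative to the mean of wild-type progenitors, the core median was -0.65 on the wild-type and -0.76 on the Rheb1-/- array, and the regulatory median -0.61 and -0.63. The immunoproteasome medians were 0.01 and 0.05, with Psmb10 and Psme2 below the wild-type progenitor mean on both stem cell arrays and Psmb8, Psmb9 and Psme1 above it. Slide 2 held wild-type progenitor 1 beside the stem cells of that genotype, and 45 of 48 genes were lower in the latter, against 60.6% of all genes; these included 15 of 15 core, 17 of 17 regulatory and 2 of 5 immunoproteasome genes. Psmb8 minus Psmb5 was 0.64 and 0.57, Psmb9 minus Psmb6 0.48 and 0.52, and Psmb10 minus Psmb7 0.24 and 0.31. Psmb8 read 5.49 and 5.52 in wild-type and Rheb1-/- stem cells, Psmb9 5.11 and 4.94, Psmb10 6.03 and 5.96, Psme1 5.85 and 6.05, and Psme2 5.88 and 5.67. The Rheb1-/- stem cell array was on slide 1, scanned on another day, so in stem cells genotype cannot be told apart from slide or scan. Between the stem cell genotypes 0 of 48 genes were past 2-fold, where 11.6% of 16688 genes were (5.21% higher, 6.36% lower). The differences ran from -0.26 to 0.60 with a median of 0.02, beside 0.12 over all genes. The largest were those of Psmg3 (0.60), Psmg1 (0.48) and Psmg2 (0.34). The part in these values of the lineage markers that separate the stem cell arrays, given above, was not tested.

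No proteasome gene passed between genotypes in progenitors. Of 48 genes 0 passed, where 0.0733% of all genes did (0.0508% higher, 0.0226% lower), and 1 had an unadjusted p under 0.05 in limma. The differences ran from -0.24 to 0.18 with a median of -0.05, beside 0.02 over all genes, and 33 of 48 were below 0. The genotypes did not overlap for 8 genes, all lower in Rheb1-/- progenitors, where 20.0% of all genes did not overlap (11.4% higher, 8.58% lower). The genes of smallest p were Psme4 (-0.20, adjusted p = 0.356), Psmc5 (-0.17, adjusted p = 0.495) and Psmb9 (-0.17, adjusted p = 0.544). The 95% interval lay within 1.5-fold either way for 47 of 48 genes. On the 4 progenitor arrays of slide 3 the median was -0.05, and 0 genes had an unadjusted p under 0.05.

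In myeloid cells 6 genes were higher and 1 lower in Rheb1-/- than in wild-type samples, 7 of 48 in all, where 34.2% of all genes passed (16.6% higher, 17.6% lower). Whether those shares differ was not tested. Without Psmc3ip, 5 of 47 genes were higher and 1 lower. The genotypes did not overlap for 14 genes, 10 higher and 4 lower, where 50.1% of all genes did not overlap (21.3% higher, 28.8% lower). The median was 0.09, beside -0.08 over all genes, and 33 of 48 (68.8%) were above 0, against 42.7% of all genes. For 38 of the 41 genes that did not pass, the 95% interval lay within 1.5-fold either way, and the widest bound was 1.72-fold. Beside these values, the cell cycle list, 16 of 22 of which rose, had a summed level of 8.55 to 8.70 in wild-type and 9.09 to 9.36 in Rheb1-/- myeloid cells.

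Of the 6 higher genes, 3 were chaperones of the alpha ring: Psmg1, Psmg2 and Psmg4. Psmg1 read 2.65, 2.54 and 2.44 in wild-type and 2.59, 2.83 and 2.77 in Rheb1-/- progenitors, then 0.57, 0.42 and 0.38 in wild-type and 0.90, 1.17 and 1.22 in Rheb1-/- myeloid cells. The difference was 0.64 (SE 0.11, adjusted p = 0.00237), 1.56-fold, with no overlap. Psmg2 read 3.13, 3.17 and 3.07, then 3.18, 3.33 and 3.14, then 1.21, 1.16 and 0.93, and 1.60, 1.70 and 1.96. The difference was 0.65 (SE 0.11, adjusted p = 0.00228), 1.57-fold, and its second probe gave 0.59. Psmg4 read 1.19, 1.31 and 1.03 in wild-type and 1.47, 1.51 and 1.49 in Rheb1-/- myeloid cells (0.31, SE 0.10, adjusted p = 0.0290). Its call was lost without wild-type myeloid array 3 (adjusted p = 0.0968), and also without wild-type array 1 or any 1 of Rheb1-/- arrays 1, 2 and 3. Psmg3, the partner of Psmg4, did not pass (0.22), nor did Psmd5, Psmd9 and Psmd10 (-0.12, -0.04 and -0.13). For Psmg1, Psmg2 and Psmg4 the higher Rheb1-/- level was still below that of every progenitor array.

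**Figure D5:**
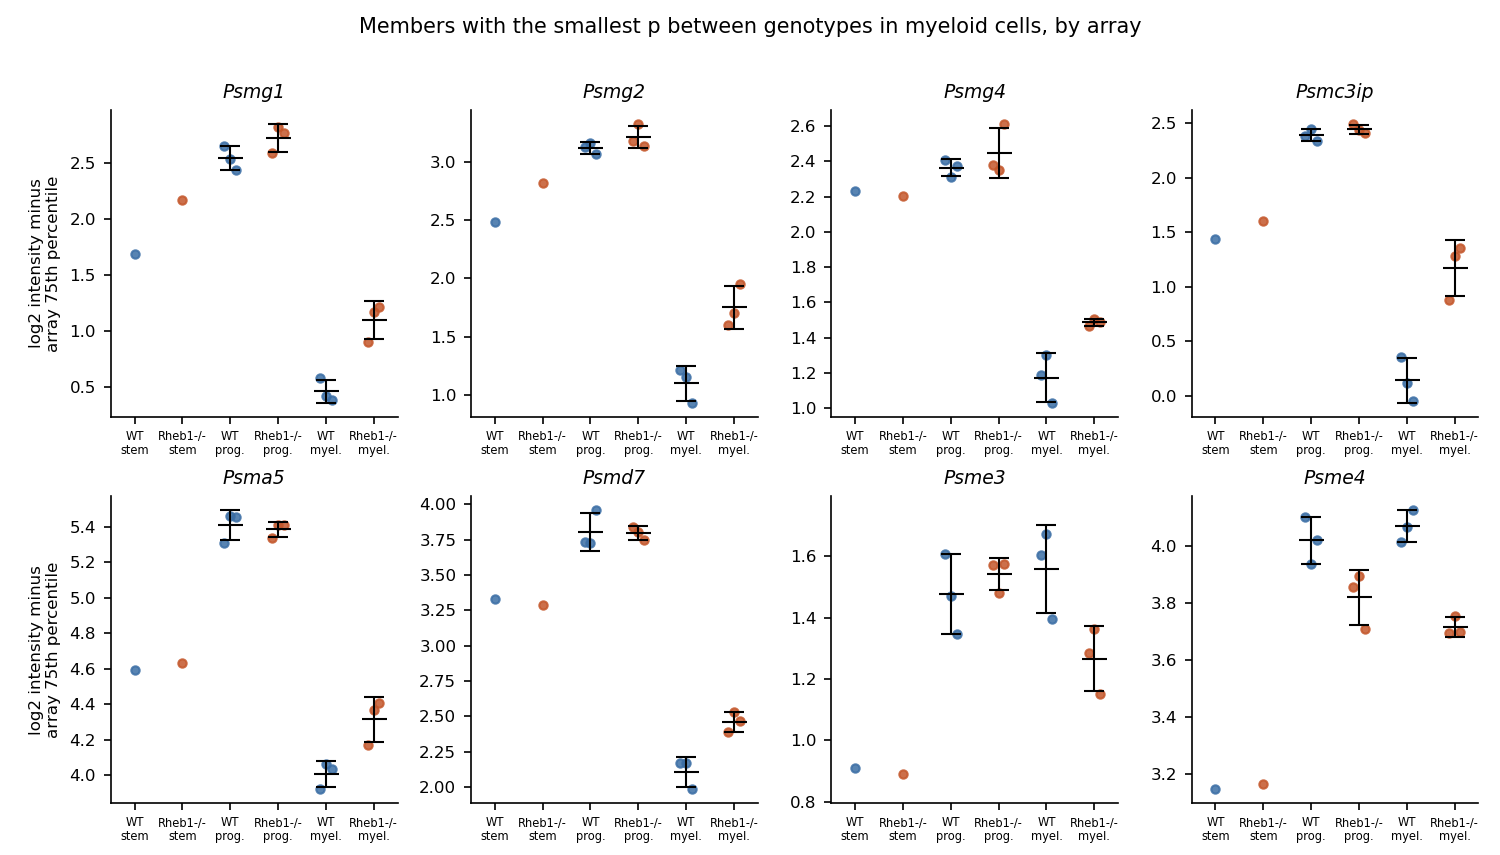
Log2 intensity minus the array's 75th percentile (y axis, one scale per panel) of the 8 members with the smallest p between genotypes in myeloid cells, 1 point per array in 6 groups, with mean and SD of 3 arrays. Psmg1, Psmg2, Psmg4, Psmc3ip, Psma5 and Psmd7 are higher and Psme4 lower in Rheb1-/- than in wild-type myeloid cells, without overlap.

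Among the subunits, Psma5 and Psmd7 were higher in Rheb1-/- myeloid cells, by 0.31 (SE 0.09, adjusted p = 0.0208) and 0.35 (SE 0.09, adjusted p = 0.0147). Psma5 lost its call without Rheb1-/- myeloid array 3 (adjusted p = 0.0740), Rheb1-/- array 2 or wild-type array 1, and Psmd7 without wild-type myeloid array 3 (adjusted p = 0.0522) or Rheb1-/- array 2. A second reference-transcript probe of Psmd7 gave 0.53, while a probe for another transcript gave -0.19. Psme4, the large nuclear activator that opens the core without ATP, was lower. It read 4.01, 4.07 and 4.13 in wild-type and 3.70, 3.76 and 3.70 in Rheb1-/- myeloid cells, a difference of -0.35 (SE 0.08, adjusted p = 0.00775), and 4.10, 3.94 and 4.02 against 3.86, 3.89 and 3.71 in progenitors. Its other 3 probes gave -0.61, -0.36 and -0.09 in myeloid cells. Psme3, the nuclear relative of Psme1, read 1.61, 1.67 and 1.4 against 1.29, 1.36 and 1.15 in myeloid cells (-0.29, adjusted p = 0.0506), and 1.61, 1.47 and 1.35 against 1.57, 1.48 and 1.58 in progenitors. Psmf1, an inhibitor of the core, gave 0.01, and its other probes gave 0.38 and -0.22, so the probes disagreed.

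Of the immunoproteasome genes 0 of 5 passed in myeloid cells, and 0 had an unadjusted p under 0.05 in limma. In that comparison 1 of 15 core and 1 of 17 regulatory genes passed, and 34.2% of all genes. Psmb8 gave 0.07 (95% interval -0.15 to 0.30), Psmb9 -0.04 (-0.27 to 0.19), Psmb10 0.16 (-0.05 to 0.38, with no overlap between genotypes), Psme1 -0.12 (-0.32 to 0.09) and Psme2 -0.23 (-0.47 to 0.02). The signs of Psmb8 and Psmb9 turned under other settings: without wild-type myeloid array 3 Psmb8 gave -0.035, and with normexp background correction Psmb9 gave 0.0077. Psmb9 minus Psmb6 was lower in Rheb1-/- than in wild-type myeloid cells by 0.19 with no overlap (exact permutation p = 0.10, adjusted 0.20). In progenitors this genotype difference was -0.13, also with no overlap and with the same p and adjusted p.

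Psmc3ip had the largest genotype difference of all 48 genes. It read 2.38, 2.44 and 2.34 in wild-type and 2.49, 2.43 and 2.41 in Rheb1-/- progenitors, then 0.36, 0.12 and -0.05 in wild-type and 0.88, 1.28 and 1.35 in Rheb1-/- myeloid cells. The myeloid difference was 1.03 (SE 0.14, adjusted p = 0.000652), 2.04-fold, and its second probe also gave 1.03. Between the cell types the genotype difference itself differed by 0.98 (SE 0.19, adjusted p = 0.0165). No other of the 48 genes passed that test, which 11.0% of all genes did (5.61% higher, 5.41% lower). Psmg2 came nearest (0.56, adjusted p = 0.0509). Over the 48 genes this difference had a median of 0.14, beside -0.08 over all genes, and 37 of 48 (77.1%) were above 0, against 43.6% of all genes.

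Genes that work with the proteasome were read from the same fit. Of 24 partners, such as ubiquitin receptors, shuttles and transcription factors of proteasome genes, 13 fell and 5 rose between wild-type progenitors and myeloid cells. Over all genes 38.4% fell and 39.5% rose. The assembly factor Pomp fell by 0.29 and the unfoldase Vcp by 1.03, while the transcription factor Nfe2l2 rose by 1.14 and Nfe2l1 did not pass (-0.16). Between genotypes in myeloid cells 5 of 24 partners rose and 0 fell, beside 16.6% and 17.6% of all genes, with Uchl5, a deubiquitinase of the regulatory particle, at 0.53 (adjusted p = 0.00205), Zfand2a at 0.83 and the shuttle Rad23b at 0.41. In progenitors 0 of 24 passed, 0 had an unadjusted p under 0.05 in limma, and the smallest p was that of Zfand5 (-0.23, adjusted p = 0.450).

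Genes regulated by interferon were read beside the immunoproteasome. Of 29 interferon targets 26 rose and 2 fell between wild-type progenitors and myeloid cells, with a median of 2.39. Over all genes 39.5% rose and 38.4% fell. Of 14 genes of the interferon receptors and their factors 11 rose and 2 fell. Irf1, a known activator of Psmb9, rose by 1.60. Of 16 MHC class I genes 9 rose and 4 fell, beside the same shares of all genes. The transporter gene Tap1, whose promoter window overlaps that of Psmb9 on chromosome 17, rose by 0.88 where Psmb9 gave 0.08. The genes that fell were the endoplasmic reticulum chaperones and peptidase Calr (-2.72), Canx (-1.68), Pdia3 (-1.53) and Erap1 (-1.71).

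Between genotypes in myeloid cells 15 of 29 interferon targets fell and 0 rose, where 17.6% of all genes fell and 16.6% rose, with a median of -0.75. The 3 of smallest p were Oasl2 (-1.81), Rsad2 (-2.20) and Rtp4 (-1.36). Of the receptors and factors 8 of 14 fell and 1 rose, and those of smallest p were Ifnar1 (-0.66), Jak1 (-0.56) and Ifngr2 (-0.55). Of the 16 MHC class I genes 4 fell and 3 rose, beside the same shares of all genes, and those of smallest p were Canx (0.49), H2-L (-0.33) and Tapbp (-0.35). In progenitors 0 genes of these 3 lists passed, while 8, 2 and 0 had an unadjusted p under 0.05 in limma. The smallest p in each was that of Mx1 (-0.63, adjusted p = 0.104), Irf7 (-0.83, adjusted p = 0.139) and H2-T23 (-0.15, adjusted p = 0.457).

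Some markers of other cells also passed between genotypes in myeloid cells, where 16.6% of all genes rose and 17.6% fell. Whether the share of a list differs from these was not tested. The part of these markers in the values above was not tested either. In Rheb1-/- myeloid cells 11 of 16 monocyte and macrophage markers fell and 1 rose, and their summed level was 9.04 to 9.1, against 9.24 to 9.26 in wild-type cells; all 16 were well above background on every array of both groups. Those of smallest p were Cd163 (-2.50), Mertk (-1.82) and Csf1r (-0.58). Of 11 B cell markers 9 fell, with the smallest p for Cd79a (-1.55), with a summed level of 4.89 to 5.26 against 6.04 to 6.75. Of 12 erythroid markers 9 fell, the smallest p being that of Epor (-1.90), and of 10 megakaryocyte markers 7 fell, the smallest p being that of Clec1b (-1.08). Of 13 T and NK cell markers 8 fell and 1 rose, the smallest p being that of Cd3d (-2.87). Their summed level was nevertheless higher in Rheb1-/- myeloid cells, 5.41 to 5.92 against 4.52 to 4.87. Of 15 dendritic cell markers 4 fell, the smallest p being that of Zbtb46 (-1.47), and of 11 eosinophil, basophil and mast cell markers 4 fell, the smallest p being that of Mcpt8 (-1.57). Of 15 neutrophil markers 4 rose and 2 fell, and 11 of 15 were below 0 (median -0.20). The granule genes Ctsg (1.38), Prtn3 (1.61) and Elane (1.12) had the smallest p, while Mmp9 (-0.96) and Cxcr2 (-0.74) fell. Of 12 stem and progenitor markers 3 rose, namely Kit (0.89), Hoxa9 (1.83) and Myb (0.82). The cell cycle genes of smallest p were Mcm6 (0.90), Mcm3 (0.68) and Mcm4 (0.67). In progenitors 1 marker passed, Ms4a7 (-1.82, adjusted p = 0.0375), and 10 of 10 megakaryocyte markers had an unadjusted p under 0.05 without passing, with Clec1b at -1.37 (adjusted p = 0.0598). Elsewhere the gene of smallest p there was Csf3r (0.43) for neutrophils, Ighm (-0.64) for B cells, Zap70 (0.52) for T and NK cells, Zbtb46 (0.62) for dendritic cells, Gata1 (-0.91) for erythroid cells, Hdc (-0.61) for eosinophils, basophils and mast cells, and Ccna2 (-0.23) for the cell cycle.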

How the data were processed

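Each of the 14 RNA samples carried Cy3 on an array of its own, per the labels. Values start from the scanner's processed intensity, from which Agilent Feature Extraction had taken the background, per the file headers. These name version 10.7.3.1; the version in the submitters' processing notes is 9.1. The mean and background intensity, per the file headers, served as an alternative. The deposited value table of 41265 probes holds log2 values. After sorting, the largest gap between its columns was 0.00234, as quantile normalization gives. Each column has a median of 5.92 and correlates at 0.998 or more with the same array's log2 intensity.

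Control spots (1639 per array) and 79 to 195 outlier spots per array were left out, and the 75th percentile of each array was subtracted from its log2 intensities. The probe of highest mean stood for a gene. A gene was tested if some replicated group had it well above background on every array, which left 17724. The 12 replicated arrays were fitted in limma 3.58.1 (R 4.3.3) with 1 mean per group, 8 residual and 1.95 prior degrees of freedom. A gene passed at a two-sided Benjamini-Hochberg adjusted p under 0.05 over all genes. Intervals are at 95% and unadjusted. The fit was tested on simulated data that held no slide effect, so that test cannot speak to differences between slides. Groups came from the labels. Deviations from the group means correlated at -0.148 to 0.13 between arrays of one replicate number, and at -0.166 to 0.142 between other arrays of different groups. Such values cannot show whether numbers pair samples. The labels give no pairing, and the main fit used none. Members and lists were chosen with earlier results of these data known. Values by array are given for the immunoproteasome, the subunits it replaces and the 2 members of smallest p between myeloid genotypes in each other class, and other lists give up to 3 passing genes of smallest p, or 1 as a value; 1 such gene is not reported here. Psma8 and Psmc3ip by array, and partner, interferon and class I genes between stages, were named after their values were seen. So were the neutrophil markers Mmp9 and Cxcr2. Proteins are not used here. Settings tried are in the closing section.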

Additional observations from a re-analysis of the deposited data

Results flagged for a closer look

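Psmc3ip was singled out because its genotype difference differed between cell types by the test of that difference: 0.976 on the log2 scale, with Rheb1-/- minus wild type at 0.06 in progenitors and 1.03 in myeloid cells.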

How the results depend on the processing

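The settings changed background correction, scaling, the dim-probe filter, the probe rule, the fit, the slide and the arrays left out. Over 39 named results and 857 such recomputations, 816 kept direction and side of the threshold, 25 lost and 5 gained a call, and 11, none past the threshold, turned sign. Myeloid genotype calls went from 7 to 12 with slide as a random block; with genotype on separate slides there, that block cannot separate them. Calls on the difference of genotype effects went from 1 to 2 with quantile normalization, the deposited value table, the filter on all 12 arrays, the random slide block, and the intensity trend with robust prior. Leaving out 1 array gave 0 to 0 calls in progenitors, 5 to 8 in myeloid cells, 1 to 3 for the difference (3 without wild-type or without Rheb1-/- myeloid array 1), 38 to 41 between wild-type and 38 to 42 between Rheb1-/- stages. With the replicate block the counts were 0, 7, 1, 39 and 39. By the labels, same-numbered arrays share only a number. For myeloid genotypes Psmb8 turned sign without wild-type myeloid 3 (-0.035; range on leaving out 1 array -0.035 to 0.13), and Psmb9 with normexp (0.0077) and without wild-type myeloid 1 or 2 (0.014 and 0.01; range -0.15 to 0.014). Between wild-type stages Psmb9 turned with quantile normalization and with the value table (-0.017 each), and Psme2 with normexp (-0.00278) and without progenitor 1 or myeloid 2 (range -0.032 to 0.16). Between Rheb1-/- stages Psme2 turned with the mean of probes (0.013) and without myeloid 1 (range -0.0599 to 0.0094). The cause was not tested. Psma5 lost its myeloid call in 5 of 22 settings, Psmd7 in 3, Psmg4 in 9, and Psmb7 its Rheb1-/- stage call in 8. Psme2 gained one between myeloid genotypes in 4 (lowest adjusted p = 0.0239). With 3 arrays a group, their number limits the precision.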
